A study of Oryza sativa with 14 samples.

Results

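Seedlings of the rice cultivar Nipponbare were compared with seedlings of the cultivar Bengal, both Oryza sativa ssp. japonica and both unmodified, which served as controls in a study of mutant and transgenic lines. The comparison rests on 4 of the 14 arrays of that study, picked by their titles alone: 2 arrays of the Nipponbare plants that served as control for the unstable lines, and 2 of the Bengal plants that served as control for the stable transgenic line. Each array held RNA from 1 pool of 6 whole seedlings, 12 days old, that had germinated in darkness for 2 days and then had 10 days with a 12 h photoperiod, all at 28 °C. Per the design text, the Nipponbare control seed came from the same selfed panicle as the seed that was irradiated or transformed. Nothing in the labels says whether the pools of a cultivar were sown or extracted separately. The p-values below therefore measure only the spread between pools, estimated over all 14 arrays and not these 4 alone.

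A separate set of arrays read the same pair of cultivars in modified plants. The unstable transgenic line was the T1 generation of cv. Nipponbare that carried BCBF1 (1 copy, driven by the RD29A promoter of Arabidopsis) and hpt II (1 copy). The stable transgenic line was the T3 generation of cv. Bengal and expressed a single-chain antibody. Both germinated with 30 mg/L hygromycin B, which the controls did not receive, so in that set cultivar, transgene and generation cannot be told apart. The Estrela A control, a further japonica cultivar grown as the other controls were, is set beside the results as a description. The Estrela A mutant enters the fit only. The unstable mutant, the M1 generation of cv. Nipponbare after 100 Gy, stood apart from its label's cultivar: across probe sets its arrays correlated at r of 0.971 to 0.978 with the Nipponbare controls and 0.972 to 0.974 with the Bengal controls. In the tests it was used for the shared estimate of spread only, and 13221 probe sets were called without it, against 13344 with it. Its levels are given below as a description.

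Nipponbare is the cultivar whose sequence became the rice reference genome, and Bengal is a medium-grain cultivar bred in Louisiana. A seedling of this age has spent most of its grain reserve and lives on leaves that fix carbon and on roots that take up nitrate, ammonium, iron and water. Transcripts of these organs, of hormone and defence pathways and of the day clock can therefore all be read in a whole-seedling pool. A microarray probe set is a group of short probes against a transcript, and the probes of this array were designed largely from japonica sequence.

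Over all 57194 probe sets tested, 13344 differed between the cultivars (23.3%, limma, adjusted p under 0.05, here "called"), 5528 of them higher in Nipponbare (9.67%) and 7816 lower (13.7%). A call with at least 2-fold change was made for 3339 (5.84%), 1708 higher and 1631 lower. Replicate arrays correlated across probe sets at 0.993 in Nipponbare and 0.996 in Bengal, against 0.962 to 0.968 between the cultivars, where probe sets are not independent replicates. Among the 17905 genes that the probe sets could be matched to, 7002 were called (39.1%), 3016 higher (16.8%) and 3986 lower (22.3%), and 1669 by at least 2-fold (9.32%). The share of calls that were higher in Nipponbare was 41.4% on the deposited values and 49.5% after cyclic loess, another way of aligning the arrays. The median log2 difference of all genes was -0.05 as deposited and 0.01 after cyclic loess. Counts in gene lists below are to be read beside the shares of all genes called, 16.8% higher and 22.3% lower. The lists were filled by gene name, and only 2458 of the 17905 genes had an informative one. A list therefore holds the named members of a family or route and can lack many others. The share called among named genes alone is not given here. Values are log2 levels of single arrays, replicate 1 before replicate 2, and differences are Nipponbare minus Bengal on the log2 scale with n = 2 arrays each.

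The largest differences among genes with an informative name lay between 3.08 and 8.64 log2 units upward and 2.70 and 5.68 downward. BURP17 (LOC4349896), a BURP-domain gene, read 13.25 and 13.10 in Nipponbare against 4.37 and 4.71 in Bengal, which put it 8.64 log2 units higher (SE 0.20, adjusted p = 6.04e-11, limma). Its relative BURP16 (LOC4348595) lay the other way, at 7.85 and 8.44 in Nipponbare against 13.64 and 13.57 in Bengal (log2 difference -5.46, SE 0.37, adjusted p = 7.46e-07). JAZ2 (LOC4342421), a member of the JAZ repressors that hold back jasmonate-responsive genes, read 10.61 and 10.60 in Nipponbare against 3.39 and 3.33 in Bengal. Both Bengal arrays thus lay far under the median level of 5.88, and the difference was 7.24 (SE 0.10, adjusted p = 1.14e-12). EIL1 (LOC4332697), named for the EIN3-like factors that carry the ethylene signal, read 10.5 and 9.86 in Nipponbare against 4.67 and 4.55 in Bengal (5.57, SE 0.20, adjusted p = 2.73e-09). The zinc finger gene C3H40 read 9.90 and 10.02 in Nipponbare against 4.51 and 4.33 in Bengal (5.54, SE 0.11, adjusted p = 1.92e-11).

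Further named genes were higher by 3.08 to 5.21 log2 units. ASMT1 (LOC4346795), named for the methyltransferase that completes melatonin synthesis, read 10.07 and 10.46 in Nipponbare against 5.01 and 5.10 in Bengal. GLU15 (LOC4345463), an endoglucanase of the cell wall list, read 8.43 and 8.16 in Nipponbare against 4.56 and 4.60 in Bengal. PP2C12 (LOC4328768), a protein phosphatase, read 11.20 and 11.32 in Nipponbare against 7.71 and 7.49 in Bengal, and APX5 (LOC4351664), an ascorbate peroxidase that removes hydrogen peroxide, 7.94 and 7.90 against 4.77 and 4.91. Their differences were 5.21, 3.72, 3.66 and 3.08, and PP2C12 was the 1 of the 4 that lay above the median level of 5.88 in Bengal too. Genes of this set were picked with disjoint arrays, so the absence of overlap is no result.

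Among the genes lower in Nipponbare, APG8D (LOC4349525), of the ubiquitin-like family that coats autophagosomes, read 4.61 and 5.22 in Nipponbare against 9.11 and 8.80 in Bengal (-4.04). SAT1 (LOC4324655) read 8.65 and 9.02 in Nipponbare against 12.05 and 11.87 in Bengal (-3.12), and its other probe set stood at -1.41. METK3 (LOC4325163), an S-adenosylmethionine synthetase gene, read 6.74 and 6.6 in Nipponbare against 9.69 and 9.72 in Bengal (-3.04). The difference of METK3 had an SE of 0.14 (limma adjusted p = 2.88e-08), while PM1 (LOC4338635) had wider arrays, 5.10 and 4.97 in Nipponbare against 7.54 and 9.14 in Bengal (-3.30, SE 0.53, adjusted p = 0.000777). The other probe set of PM1 was not called (-0.18, adjusted p = 0.282). ELA3 (LOC4341858) read 5.10 and 6.80 in Nipponbare against 10.77 and 11.13 in Bengal (-5.0), and STLP3 (LOC4336343) 6.01 and 4.80 in Nipponbare against 8.17 and 8.03 in Bengal (-2.70).

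**Figure D1:**
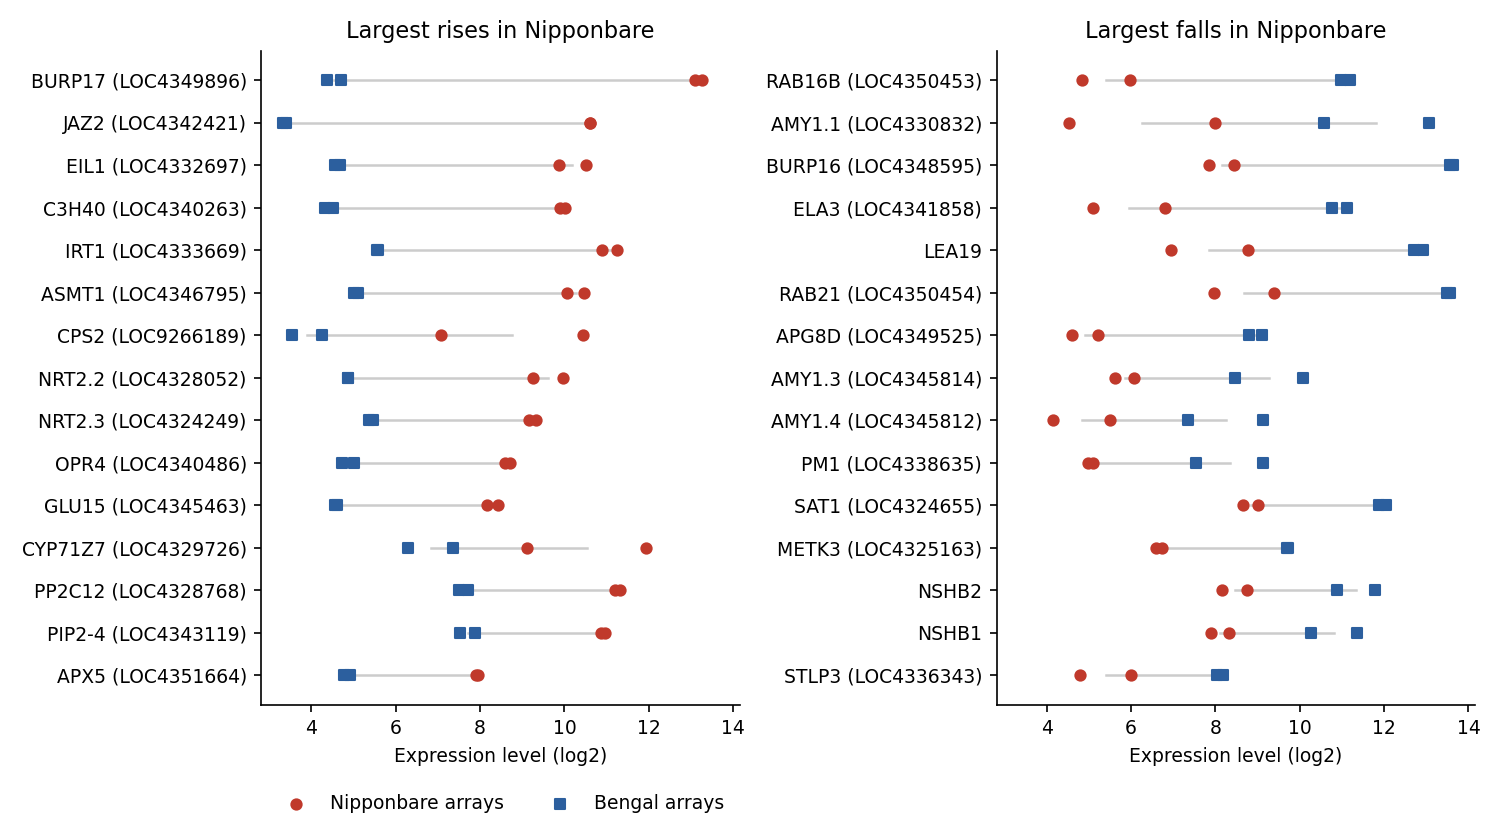
Levels of the 15 named genes with the largest rise (left) and the 15 with the largest fall (right) in Nipponbare relative to Bengal. The horizontal axis is the log2 expression level, each red circle is a Nipponbare array, each blue square a Bengal array, and a grey line joins the group means. BURP17 and JAZ2 have tight, distant groups, while CPS2, CYP71Z7 and AMY1.1 have replicates several log2 units apart.

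Genes known by an identifier alone gave the widest gaps. LOC4326061 read 13.10 and 12.94 in Nipponbare against 4.18 and 4.06 in Bengal (8.90), LOC4341377 14.06 and 14.08 against 5.33 and 5.30 (8.76), and LOC4326058 12.91 and 12.73 against 4.13 and 4.42 (8.54). In the Estrela A control these 3 genes read 13.1, 13.87 and 12.44, near Nipponbare. LOC4329983 (8.56) and LOC4346790 (8.15) were also among the 5 largest rises, and Estrela A read 3.87 for each, near Bengal. The other probe set of LOC4341377 stood at only 1.96 and that of LOC4346790 at 1.84. LOC4326061 has 3 probe sets, and the next brightest stood at 8.49. Among genes known by identifier the 5 largest falls were LOC4340994 at -6.65, LOC4350420 at -6.38, LOC4352467 at -6.21, LOC4334644 at -5.40 and LOC4334012 at -5.16. Of probe sets matched to no gene, the 3 largest rises were 8.74, 7.67 and 7.55 and the 3 largest falls -8.60, -8.13 and -6.68.

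Large differences mostly came with a very low reading in the lower cultivar. At least 16-fold separated the cultivars for 214 called probe sets, 141 higher and 73 lower in Nipponbare, and in 185 of them the lower cultivar lay under the median level of 5.88. At least 64-fold separated them for 51, and for 50 of these the lower cultivar lay under that level. Whether a probe set reads equal amounts of RNA equally in both cultivars was not tested, since probe sequences were not used here. The genes that have another probe set bear on it, and only the next brightest was read. Of 318 such genes called at 2-fold or more, that probe set was called the same way for 188 (59.1%), the opposite way for 8 (2.52%) and not called for 122 (38.4%).

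Most root marker genes were higher in Nipponbare. Of the 13, 8 were called higher and 0 lower (median log2 difference 2.14, against -0.05 for all genes). The mean level of the list was 9.90 and 10.15 on the Nipponbare arrays against 7.73 and 8.13 on the Bengal arrays. On the arrays of the unstable mutant, though labelled cv. Nipponbare, it was 7.38 and 8.34, and on those of the Estrela A control 7.19 and 7.12. Without Nipponbare replicate 2 the count was 5, and in the other 3 fits that left out 1 array it was 6. In pools of whole seedlings, fewer cells of a type and less RNA per cell cannot be told apart. Shoot markers moved less: 3 of 8 were called higher and 1 lower, and their mean level was 11.62 and 11.59 in Nipponbare against 11.43 and 11.44 in Bengal. Grain remnant markers lay at 6.40 and 6.41 in Nipponbare against 6.39 and 6.34 in Bengal, with 2 of 15 called higher and 1 lower (1 and 0 without Nipponbare replicate 1 or Bengal replicate 1). The root markers are not a set apart from the lists below. Of them, 8 are on the metal and silicon list, 4 on the nitrogen list, 1 on the phosphate list and 1 on the aquaporin list. The root marker result and the results on those lists are therefore not separate. The part that the share of root in the pools had in the results on uptake genes below was not tested.

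IRT1 (LOC4333669), the plasma membrane transporter that takes up iron, read 10.88 and 11.25 in Nipponbare against 5.58 and 5.56 in Bengal, a difference of 5.50 or 45.1-fold (SE 0.21, limma adjusted p = 4.08e-09). The high-affinity nitrate transporter gene NRT2.2 (LOC4328052) read 9.25 and 9.97 in Nipponbare against 4.88 and 4.86 in Bengal (4.74, SE 0.31, adjusted p = 6.21e-07). NRT2.3 (LOC4324249) read 9.16 and 9.32 in Nipponbare against 5.37 and 5.45 in Bengal (3.83, SE 0.11, adjusted p = 3.33e-10). All 3 read at Bengal's level in Estrela A, at 5.53, 5.09 and 5.13. The unstable mutant, though labelled cv. Nipponbare, also read them near Bengal's level, at 5.84, 5.01 and 5.44. NRAMP5 (LOC4342859), the manganese and cadmium uptake transporter, was chosen after its values were seen and read 10.59 and 10.60 in Nipponbare against 8.38 and 8.53 in Bengal (2.14, adjusted p = 6.27e-07). The silicon transporter genes Lsi1 and Lsi2, chosen likewise, stood at 0.58 and 0.78. Lsi2 lost its call whichever array was left out (adjusted p up to 0.195), and Lsi1 in each such fit except that without Bengal replicate 1 (up to 0.185). NAS1 and NAS2, which make the metal chelator nicotianamine and were also chosen after their values were seen, were not called. NAS1 read 11.62 and 11.89 in Nipponbare against 8.24 and 10.53 in Bengal, where the Bengal arrays differed widely.

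The nitrogen list held 11 genes called higher and 3 lower of 20 (median 0.70). It shares 4 genes with the root markers, and of the 16 others 7 were called higher and 3 lower, with a median of 0.20. The ammonium transporter gene AMT1-2 (LOC4330008) read 8.76 and 9.11 in Nipponbare against 6.45 and 6.69 in Bengal (2.37, limma adjusted p = 0.000204), and AMT1 (LOC4336365) 10.82 and 11.17 against 9.04 and 9.47 (1.74, adjusted p = 0.000283), but the other probe set of AMT1 was not called (0.22, adjusted p = 0.418). The nitrate reductase gene NIA1, which starts nitrate assimilation and was chosen after its values were seen, lay the other way at 11.28 and 11.57 in Nipponbare against 12.47 and 12.76 in Bengal (-1.19, adjusted p = 0.000248).

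Metal and silicon genes moved both ways, with 11 of 63 called higher and 17 lower. Outside the 8 genes shared with the root markers, 7 of 55 were higher and 17 lower. Without Bengal replicate 1 and without Nipponbare replicate 2, 6 of the 63 were called higher. YSL15, which takes up iron bound to a phytosiderophore, read 9.56 and 10.19 in Nipponbare against 7.22 and 8.10 in Bengal (2.22, limma adjusted p = 0.00841, with the call lost without Bengal replicate 1, at 0.0825, and without Nipponbare replicate 2). VIT1.2 (LOC4346978), named for the vacuolar iron transporters, read 10.67 and 10.28 in Nipponbare against 12.57 and 12.77 in Bengal (-2.19, adjusted p = 1.83e-07). The copper transporter gene COPT2 read 5.94 and 6.92 in Nipponbare against 8.67 and 8.65 in Bengal (-2.23, adjusted p = 0.000366).

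Of 20 phosphate genes, 6 were called higher and 2 lower, and 1 of the 20 is a root marker. The count lower was 1 without Nipponbare replicate 1, Nipponbare replicate 2 or Bengal replicate 2. PT1 (LOC4331637), a phosphate transporter, read 9.38 and 9.72 in Nipponbare against 6.54 and 6.44 in Bengal (3.06, limma adjusted p = 4.57e-07). PHO1-2 stood at 1.29 (adjusted p = 0.00434), with the call lost without Bengal replicate 1, at a difference of 1.02. The next brightest of its probe sets was not called (0.03, adjusted p = 0.876). Potassium and salt transporters were called higher in 6 of 28 cases and lower in 2, with 3 higher without Nipponbare replicate 1 or Bengal replicate 1. That is 28.6% of the potassium and salt list called, against 39.1% of all genes. HAK1, a high-affinity potassium transporter, was higher by 1.58 and the root channel AKT1 by 1.29, while HAK7 stood at -1.54.

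Water channels were also mostly higher where called. Of 25 aquaporin genes, 9 were called higher and 2 lower (1 lower without Nipponbare replicate 1 or either Bengal array). The plasma membrane aquaporin PIP2-4 (LOC4343119) read 10.86 and 10.97 in Nipponbare against 7.88 and 7.53 in Bengal (3.21, SE 0.16, limma adjusted p = 5.28e-08). PIP2-7 (LOC4347729) read 12.59 and 12.55 in Nipponbare against 9.51 and 9.92 in Bengal (2.86, adjusted p = 2.73e-08). The tonoplast channel TIP2 read 13.53 and 13.55 in Nipponbare against 10.16 and 11.51 in Bengal, so the Bengal arrays were further from each other than the Nipponbare ones (2.70, adjusted p = 0.000205). TIP3 lay the other way at 4.87 and 5.06 in Nipponbare against 7.85 and 7.07 in Bengal (-2.50, adjusted p = 0.000106).

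**Figure D2:**
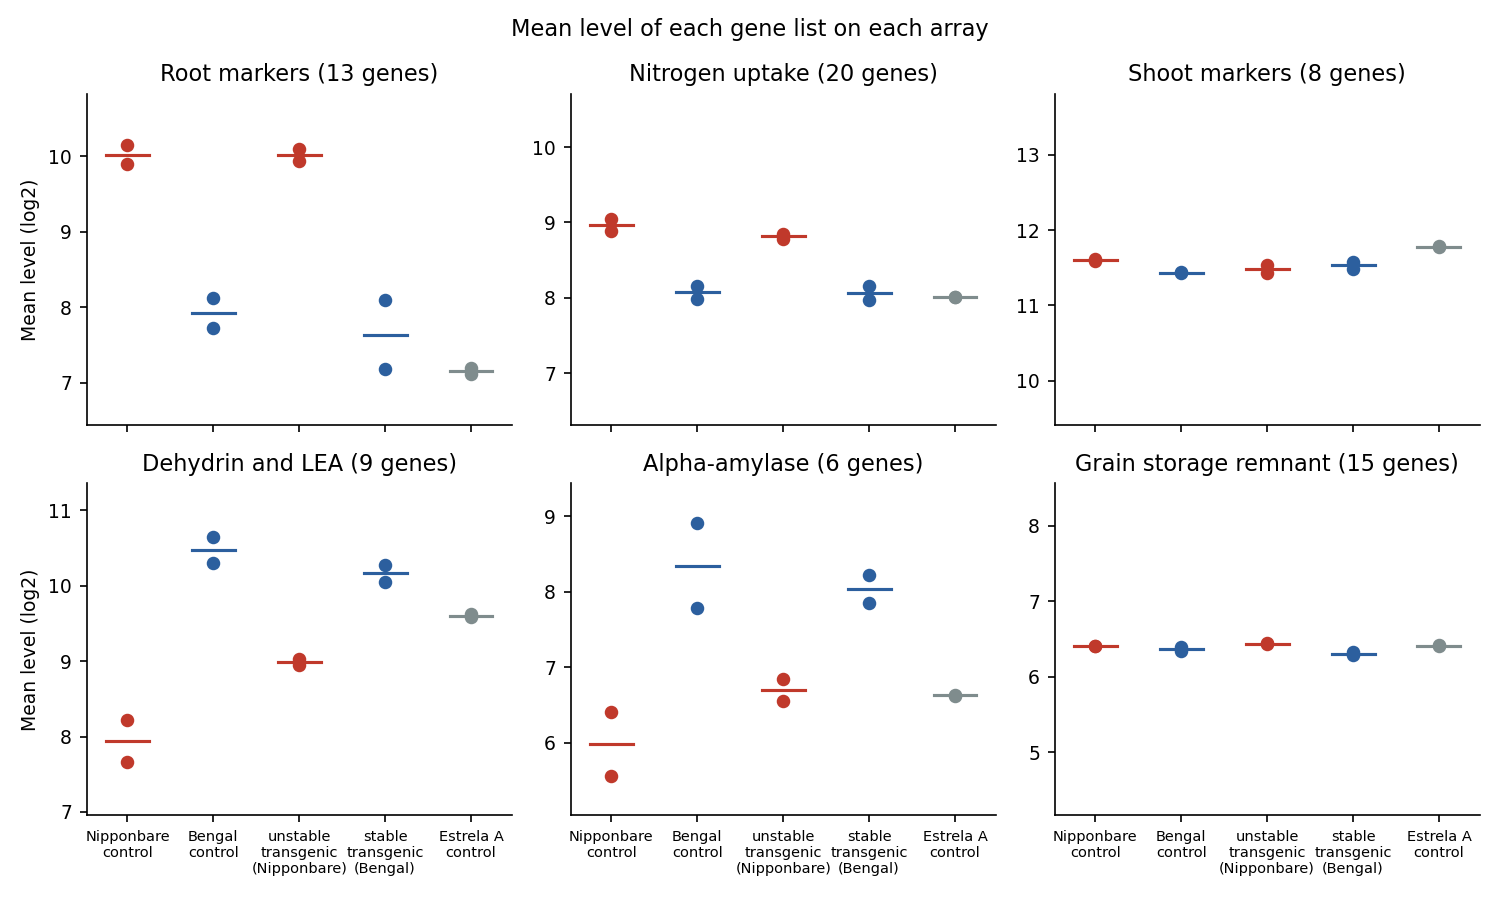
Mean log2 level of 6 gene lists on each array of the controls and transgenic lines. Points are arrays, a bar is the mean of a group of 2 arrays, red marks Nipponbare, blue Bengal and grey Estrela A, and each panel spans the same range of log2 units. Root markers lay at 9.90 and 10.15 in the Nipponbare controls against 7.73 and 8.13 in the Bengal controls, and dehydrin genes at 7.66 and 8.22 against 10.30 and 10.65.

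Transcripts of water-deficit proteins had the opposite pattern. Dehydrins and late embryogenesis abundant (LEA) proteins protect cells as they lose water, in the ripening seed and in leaves and roots under drought, and abscisic acid induces many of them. Of 9 such genes, 7 were called lower in Nipponbare and 0 higher, with a median of -2.07, and the count stayed at 6 or 7 whichever of the 4 arrays was left out. RAB16B (LOC4350453) read 4.83 and 5.97 in Nipponbare against 10.97 and 11.19 in Bengal (-5.68, SE 0.48, limma adjusted p = 5.33e-06). RAB21 (LOC4350454) read 7.96 and 9.40 in Nipponbare against 13.57 and 13.50 in Bengal (-4.86, SE 0.43, adjusted p = 7.23e-06). LEA19 read 6.95 and 8.77 in Nipponbare against 12.72 and 12.93 in Bengal (-4.96, SE 0.45, adjusted p = 9.14e-06). In these 3 genes the Nipponbare arrays were 1 to 2 log2 units apart, replicate 1 the lower, and the Bengal arrays were close together. RAB16C was lower by less, at 7.52 and 7.17 in Nipponbare against 9.32 and 10.24 in Bengal (-2.44, adjusted p = 0.00207). The dehydrin gene Dhn1, chosen after its values were seen, was not called (11.33 and 11.43 in Nipponbare against 11.50 and 11.78 in Bengal, adjusted p = 0.166). The mean level of the list was 7.66 and 8.22 in the Nipponbare controls against 10.30 and 10.65 in the Bengal controls. In the unstable mutant, though labelled cv. Nipponbare, it was 9.80 and 9.72, nearer to Bengal. It was 8.95 and 9.03 in the unstable transgenic line and 9.62 and 9.58 in the Estrela A control.

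Genes of abscisic acid itself were called higher in 3 of 23 cases and lower in 6, and lower in 2 without Bengal replicate 1, without Bengal replicate 2 or without Nipponbare replicate 1. The share of this list that was called, 39.1%, equalled that of all genes. ABA8OX1, the hydroxylase that breaks abscisic acid down, read 9.20 and 9.60 in Nipponbare against 6.44 and 6.79 in Bengal (2.78, limma adjusted p = 1.56e-05). ABA1, zeaxanthin epoxidase of the synthesis route, read 9.90 and 9.94 in Nipponbare against 8.77 and 8.89 in Bengal (1.09, adjusted p = 5.87e-06). The phosphatase genes PP2C68 and PP2C30, of a family that holds abscisic acid signalling in check, stood at -1.50 and -0.80. Among 9 DREB and ERF stress factors 2 were higher and 2 lower, and 1 each way without Nipponbare replicate 1 or either Bengal array. CBF3, of the DREB1 group of cold regulators, read 8.15 and 8.51 in Nipponbare against 6.09 and 5.73 in Bengal (2.42, adjusted p = 0.00117).

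Transcripts of alpha-amylase genes were mostly lower in Nipponbare. Alpha-amylase is secreted into the grain after germination and frees sugar for the seedling. Of 6 genes on that list, 5 were called lower in Nipponbare and 0 higher, and 4 or 5 whichever array was left out. With probe sets shared between transcripts removed, 3 were called lower. AMY1.1 (LOC4330832) read 4.52 and 8.0 in Nipponbare against 13.06 and 10.57 in Bengal (-5.56, SE 1.12, limma adjusted p = 0.0034). This gene was among those picked with disjoint arrays, so the absence of overlap is no result. Replicates of each cultivar differed by over 2 log2 units, and the difference ran between -7.30 and -3.82 when 1 array was left out. AMY1.4 (LOC4345812) read 4.16 and 5.51 in Nipponbare against 9.14 and 7.35 in Bengal (-3.41, adjusted p = 0.0013). AMY1.5 read 6.78 and 7.13 in Nipponbare against 8.53 and 8.29 in Bengal (-1.46, adjusted p = 3.08e-05). AMY1.3 (LOC4345814) stood at -3.42 (adjusted p = 4.02e-05), but its other probe set stood at 0.19 (adjusted p = 0.318). GAMYB, the factor through which gibberellin switches amylase genes on and chosen after its values were seen, read 7.48 and 7.39 in Nipponbare against 8.07 and 7.80 in Bengal (-0.50, adjusted p = 0.0137, with the call lost without Bengal replicate 1 or Nipponbare replicate 2, at up to 0.126). The mean level of the grain storage markers, as given above, lay close in both cultivars, but single markers differed. GLB read 11.10 and 10.93 in Nipponbare against 9.74 and 9.94 in Bengal (1.18, limma adjusted p = 8.32e-06). GT4 was also higher (0.50), and GLUA-2 was lower (-0.47).

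Sugar genes were called lower in 8 of 42 cases and higher in 3, and higher in 1 without Bengal replicate 1 or Nipponbare replicate 2. Over all genes 22.3% were called lower and 16.8% higher, and 26.2% of the sugar list was called against 39.1% of all genes. The sugar exporters SWEET11 (7.68 and 7.85 in Nipponbare against 10.13 and 10.57 in Bengal), SWEET14, SWEET4 and SWEET16 were all lower, with differences of -2.58, -2.12, -1.14 and -1.02. Of the 12 genes of low oxygen and fermentation, 4 were lower and 2 higher, and the higher calls came to 0 without Bengal replicate 1 or Nipponbare replicate 2 and to 1 without either of the other arrays. The sucrose synthase genes SUS5 (7.40 and 7.42 in Nipponbare against 9.35 and 9.40 in Bengal) and SUS4 (10.64 and 10.66 against 12.18 and 12.39) were lower, with differences of -1.96 and -1.64. The non-symbiotic haemoglobin genes NSHB2 and NSHB1 read 8.15 and 8.76, and 7.90 and 8.33, in Nipponbare against 11.79 and 10.89, and 11.35 and 10.27, in Bengal. The NSHB1 call (limma adjusted p = 0.00736) was lost without Bengal replicate 1 or Nipponbare replicate 1 (up to 0.0756).

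Jasmonate synthesis genes leaned upward in Nipponbare. This route turns a membrane fatty acid into the wound and defence hormone by way of lipoxygenase, allene oxide synthase and cyclase and oxophytodienoate reductase. Of 18 genes, 8 were called higher and 1 lower (median 0.35), with 4 higher without Bengal replicate 1 and 0 to 2 lower as each array in turn was left out. OPR4 (LOC4340486), of the oxophytodienoate reductase family, read 8.58 and 8.72 in Nipponbare against 4.73 and 5.01 in Bengal (3.78, SE 0.19, limma adjusted p = 5.34e-08), and Estrela A read 9.19. AOS4 (LOC4328743) read 10.47 and 10.83 in Nipponbare against 8.73 and 8.54 in Bengal (2.02, adjusted p = 1.15e-05). CM-LOX2, a lipoxygenase, read 9.06 and 7.30 in Nipponbare against 6.29 and 6.86 in Bengal (limma adjusted p = 0.0381). Its call was lost without Nipponbare replicate 1 (difference 0.72) and without either Bengal array. The next brightest of its probe sets stood at 0.44. OPR1 was lower, at 7.27 and 7.39 in Nipponbare against 8.76 and 9.78 in Bengal (-1.94, adjusted p = 0.00774, and 0.0872 without Bengal replicate 2).

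Of 20 jasmonate signalling genes, 4 were called higher and 1 lower (median 0.09), and 2 lower without Nipponbare replicate 1. Beside JAZ2, described above, the repressors JAZ7 (0.55), JAZ1 (0.46) and JAZ6 (0.68) were higher by small amounts. The JAZ6 call (limma adjusted p = 0.0447) was lost whichever array was left out (up to 0.168). COI1A, a jasmonate receptor gene chosen after its values were seen, was lower, at 11.07 and 10.99 in Nipponbare against 11.46 and 11.47 in Bengal (-0.44, adjusted p = 0.0029). JAZ9 and JAZ13, chosen likewise, were not called, at -0.76 and -0.35.

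Rice makes diterpenoid phytoalexins, antimicrobial compounds such as phytocassanes and momilactones, from copalyl diphosphate. Of 17 genes of this route, 5 were called higher in Nipponbare and 0 lower (median 1.12), and the Nipponbare arrays differed widely in several of them. The cytochrome P450 list below holds 10 of the 17, and of the 7 others 3 were called higher and 0 lower. The diphosphate synthase gene CPS2 read 10.43 and 7.08 in Nipponbare against 3.53 and 4.25 in Bengal (4.86, SE 0.83, limma adjusted p = 0.00117), and the difference was 3.19 without Nipponbare replicate 1 and 6.54 without Nipponbare replicate 2. CYP71Z7, a P450 of phytocassane synthesis, read 11.94 and 9.11 in Nipponbare against 6.29 and 7.37 in Bengal (3.70, adjusted p = 0.0144, with the call lost without Nipponbare replicate 1, at 0.142, and without Bengal replicate 1). The synthase gene DTC1 (2.15) lost its call without Nipponbare replicate 1 or Bengal replicate 1 (up to 0.192) and was not called by its other probe set (0.14, adjusted p = 0.503), and KS10 (2.06) without Nipponbare replicate 1 or either Bengal array (up to 0.156). The list count was 2 without Nipponbare replicate 1, 3 without Bengal replicate 1, 4 without Bengal replicate 2 and 12 without Nipponbare replicate 2.

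Of 21 defence genes, 8 were called lower and 2 higher (1 higher without Nipponbare replicate 1 or Bengal replicate 1, 4 without Nipponbare replicate 2). The list's median was -0.06 as deposited and 0.03 after cyclic loess, and in the transgenic pair 6 were higher and 3 lower with a median of 0.20. The chitinase genes Cht1 (4.38 and 4.76 in Nipponbare against 7.63 and 6.85 in Bengal), Chib3H-a (5.44 and 5.05 against 7.44 and 7.96) and Cht4 (9.50 and 9.67 against 11.54 and 11.32) were lower, with differences of -2.67, -2.46 and -1.84. The chitinase gene chia4a stood at -1.38 (limma adjusted p = 0.0053, and 0.0551 without Bengal replicate 1). NH1, the rice counterpart of the salicylic acid regulator NPR1 and chosen after its values were seen, read 8.78 and 8.81 in Nipponbare against 9.62 and 9.71 in Bengal (-0.87, adjusted p = 0.000241). Of 3 disease resistance genes, Pi21 (-0.60) and PIK6-NP (-0.57) were lower. The brighter probe set of PIK6-NP read only 4.07 and 4.05 in Nipponbare against 4.40 and 4.87 in Bengal, lost its call without Bengal replicate 2 (adjusted p = 0.0948), and its other probe set stood at 0.67 (adjusted p = 0.000573).

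Genes of lignin and phenolics were called higher in 12 of 27 cases and lower in 2 (median 0.38). The laccase gene LAC20, of the enzymes that polymerise lignin, read 9.66 and 9.43 in Nipponbare against 7.53 and 6.43 in Bengal (2.56, limma adjusted p = 0.00181). LAC4 read 9.36 and 9.01 in Nipponbare against 7.46 and 7.0 in Bengal (1.96, adjusted p = 4.51e-05), and the alcohol dehydrogenase gene CAD3 9.31 and 9.31 against 7.66 and 7.20 (1.88, adjusted p = 3.61e-06). LAC19 read 9.07 and 5.86 in Nipponbare against 4.71 and 5.10 in Bengal, and its call (adjusted p = 0.0293) was lost without Nipponbare replicate 1 or either Bengal array (up to 0.211). Both flavonoid genes that were matched by name, Cfi (chalcone isomerase, 0.98) and CHS1 (chalcone synthase, 0.66), were higher. CHS1 lost its call without Bengal replicate 2 (difference 0.46) and in the next brightest of its probe sets (0.49, limma adjusted p = 0.0705).

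Of 79 cell wall genes, 24 were called higher and 9 lower (median 0.17). Without Nipponbare replicate 1, 4 were lower, and without either Bengal array 5. The expansin gene EXPB2, which loosens walls as cells grow, read 10.39 and 10.92 in Nipponbare against 8.42 and 8.09 in Bengal (2.40, limma adjusted p = 0.000117). The endoglucanase genes GLU6 and GLU5 were higher by 2.48 and 2.31.

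Of 20 photosynthesis genes, 10 were called higher and 2 lower (median 0.29), with 5 higher without Bengal replicate 1 and 6 without Nipponbare replicate 1. This list shares 8 genes with the shoot markers given above, and of the 12 others 7 were called higher and 1 lower. LFNR1, the leaf ferredoxin-NADP reductase, read 11.98 and 11.95 in Nipponbare against 10.26 and 10.45 in Bengal (1.61, limma adjusted p = 1.1e-06). The light-harvesting gene LHCP read 14.07 and 14.02 in Nipponbare against 13.24 and 13.39 in Bengal (0.73, adjusted p = 9.26e-05). PORB, protochlorophyllide reductase, read 11.76 and 11.78 in Nipponbare against 11.01 and 11.02 in Bengal (0.76, adjusted p = 0.000696). The transcription factor GLK1, which switches on light-harvesting genes, was lower, at 10.71 and 10.72 in Nipponbare against 11.28 and 11.34 in Bengal (-0.60, adjusted p = 0.00103). The Rubisco small subunit gene RBCS (LOC4351966), chosen after its values were seen, was not called at 14.29 and 14.33 in Nipponbare against 14.36 and 14.35 in Bengal (adjusted p = 0.768).

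**Figure D3:**
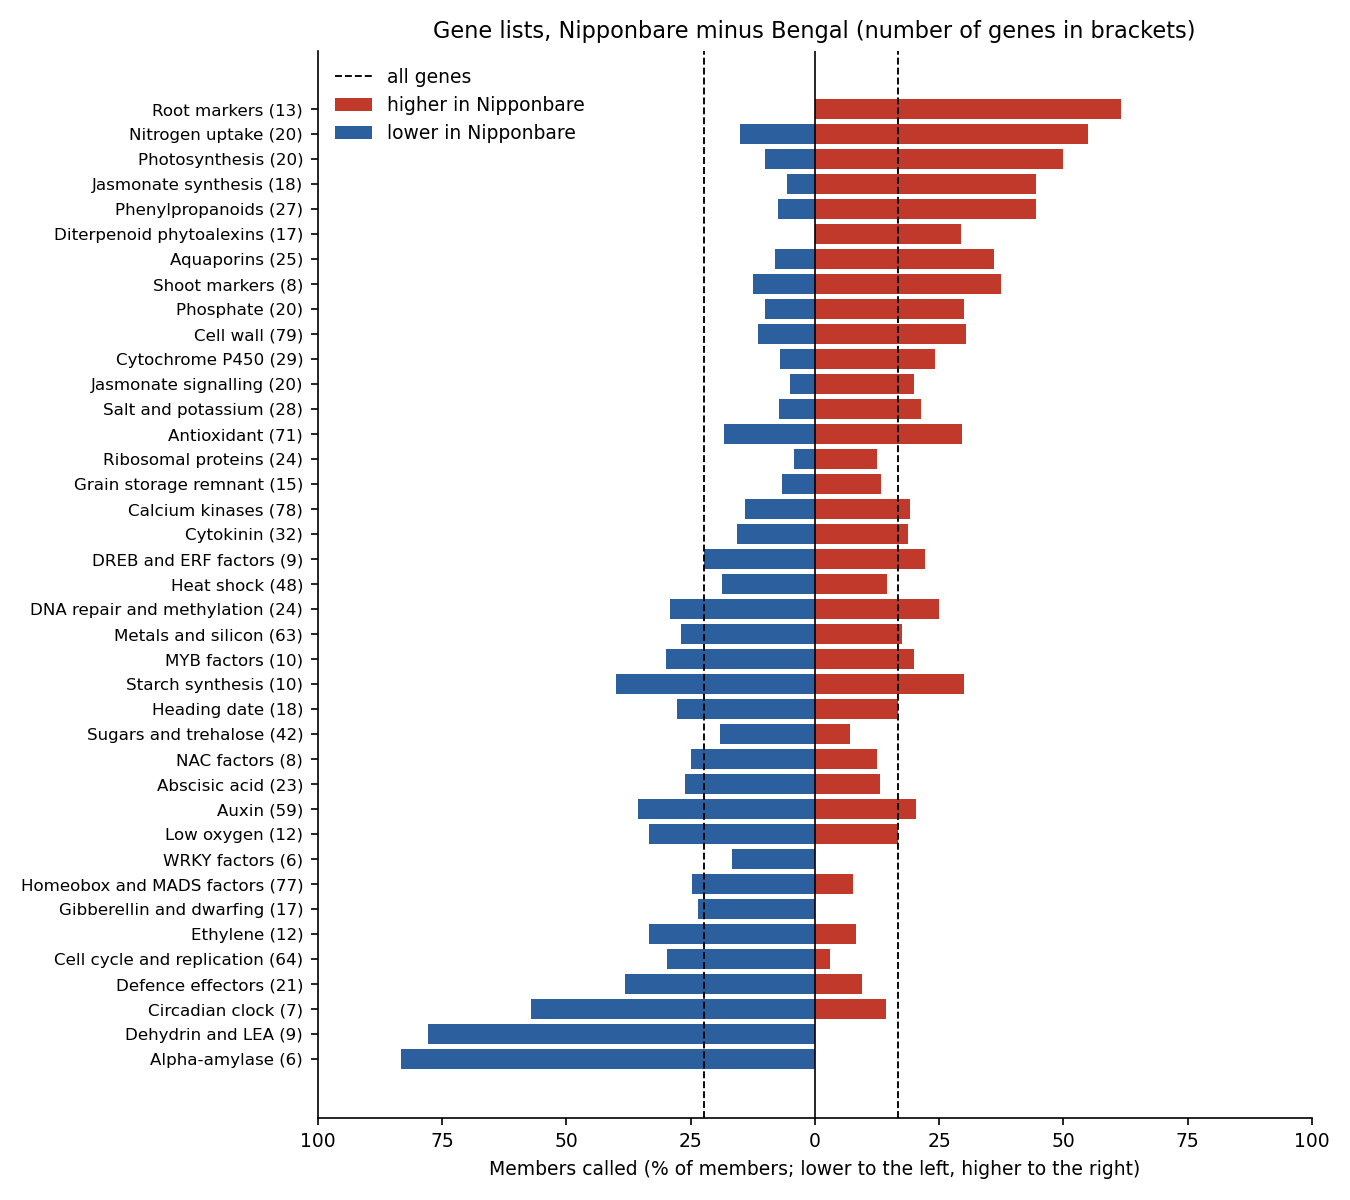
Share of each gene list called higher (red, to the right) or lower (blue, to the left) in Nipponbare relative to Bengal, for lists of at least 6 genes with the number of genes in brackets. Dashed lines mark the shares over all genes, 16.8% higher and 22.3% lower. Root markers, nitrogen uptake and photosynthesis have the longest bars on the right, and alpha-amylase, dehydrin and LEA and the clock the longest on the left.

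The circadian clock runs on transcription factors that peak at set times of the day, and the hour of harvest is not given in the sources used here. Of 7 clock genes, 4 were called lower in Nipponbare and 1 higher, with 3 lower and 0 higher whichever array was left out. PCL1 read 8.39 and 8.23 in Nipponbare against 9.73 and 9.83 in Bengal (-1.47, limma adjusted p = 8.31e-06), and PRR95 12.51 and 12.33 against 13.33 and 13.37 (-0.93, adjusted p = 0.000307). CCA1, the dawn factor, read 10.06 and 10.04 in Nipponbare against 11.11 and 11.12 in Bengal (-1.06, adjusted p = 3.91e-06), but its other probe set stood at 0.28 (adjusted p = 0.112). PRR1 (-0.45, adjusted p = 0.0266) and PRR37 (0.33, adjusted p = 0.0244) both lost their calls whichever array was left out (up to 0.134 and 0.102). GI and PRR73 were not called, at -0.14 and 0.15.

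Of 18 heading date genes, which time flowering by day length, 3 were called higher and 5 lower. Without Bengal replicate 2 or Nipponbare replicate 1 these were 1 and 3. MADS50, a flowering activator, read 8.4 and 8.26 in Nipponbare against 7.18 and 7.33 in Bengal (1.08, limma adjusted p = 9.76e-06). The light receptor genes phyC (-0.78) and PHY18 (-0.87) and the gene Hd18 (-0.83) were lower, and PhyB (-0.42, adjusted p = 0.047) lost its call in each fit without 1 array except that without Bengal replicate 1 (up to 0.302). The florigen gene Hd3a read 4.48 and 4.32 in Nipponbare against 4.41 and 4.48 in Bengal and was not called, nor was its regulator Hd1 (0.12, adjusted p = 0.606). Both stood well under the median level of 5.88.

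Among 10 starch synthesis genes, 3 were called higher and 4 lower, and 1 higher without Bengal replicate 1. GBSS1, the granule-bound synthase of the Waxy locus that makes amylose, read 7.52 and 7.49 in Nipponbare against 5.66 and 6.05 in Bengal (1.65, limma adjusted p = 5.13e-05), and Estrela A read 6.40. The next brightest of its 6 probe sets stood at 0.78, and the remaining ones are not given here. DPE1 (-0.78), SS1 (-0.64) and SSII-1 (-0.63) were lower. SS2 stood at 0.60 (adjusted p = 0.0103), with the call lost without Bengal replicate 1, at a difference of 0.44. The next brightest of its probe sets stood at -0.09.

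Growth hormone genes moved both ways. Of 59 auxin genes, 12 were called higher and 21 lower, with 7 and 12 without Bengal replicate 1 and 7 and 13 without Nipponbare replicate 1. IAA3 read 13.41 and 13.38 in Nipponbare against 11.58 and 11.60 in Bengal (1.80, limma adjusted p = 3.24e-08), but its other probe set stood at -0.10 (adjusted p = 0.596). IAA18 (-1.64), the auxin transporter gene PIN3A (-1.60) and SAUR39 (-1.38) were lower. Of 32 cytokinin genes 6 were higher (3 without Nipponbare replicate 1) and 5 lower, with the response regulators RR1 (1.52) and RR9 (1.46) higher and the breakdown enzyme CKX11 (-1.04, and -0.32 without a call in its other probe set) lower. Of 12 ethylene genes, 4 were lower and EIL1 (LOC4332697) was the 1 that was higher. ACO1, which makes ethylene, was lower (-1.12), as were EIN2 (-0.69) and the other gene under the name EIL1 (LOC107276358, -0.80, and -0.22 without a call in its other probe set). Of 17 gibberellin and dwarfing genes, 4 were lower (23.5%, near the 22.3% lower over all genes) and 0 higher. The median of this list was 0.03 after cyclic loess. The lower genes included the strigolactone gene D3 (6.44 and 6.63 in Nipponbare against 7.53 and 7.54 in Bengal, -1.0), BRI1 (-0.62) and CYP701A19 (-1.56).

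Of 64 cell cycle and replication genes, 19 were called lower and 2 higher (median -0.16, against 22.3% lower and 16.8% higher over all genes), with 4 higher after cyclic loess and 1 without Bengal replicate 1. In the transgenic pair 11 were higher and 16 lower, with a median of 0.11. CDKF-1 (-0.99) and CYCD5-1 (-0.98) were lower, while the P-type cyclin CYCP2-1 read 9.14 and 9.48 in Nipponbare against 6.85 and 7.38 in Bengal (2.19, limma adjusted p = 3.29e-06). Of 77 homeobox and MADS factors, 19 were lower, a share near that of all genes, and 6 higher. Without Bengal replicate 1, 11 were lower, and without Bengal replicate 2 or Nipponbare replicate 1, 10 and 9 were lower and 3 higher. MADS2 read 6.82 and 6.93 in Nipponbare against 9.55 and 9.33 in Bengal (-2.56, adjusted p = 4.35e-08). Counts in the smaller factor families were 1 higher and 2 lower of 8 NAC factors, 2 and 3 of 10 MYB factors (0 higher without Nipponbare replicate 1 or Bengal replicate 1), and 0 and 1 of 6 WRKY factors (0 lower without either Bengal array, 2 without Nipponbare replicate 1).

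The remaining lists held calls in both directions. Of 71 antioxidant genes 21 were higher and 13 lower, with the peroxiredoxin gene PRXIIE-2 higher (10.72 and 10.84 in Nipponbare against 9.06 and 8.87 in Bengal, 1.82) and the glutaredoxin genes GRXC10 (-2.08) and GRXC15 (-1.90) lower. Of 48 heat shock genes 7 were higher (3 without Bengal replicate 1) and 9 lower, with the small heat shock protein gene HSP16.9B at 6.94 and 7.03 in Nipponbare against 4.37 and 4.30 in Bengal (2.65, limma adjusted p = 2.5e-08) and the heat shock factor gene HSF03 at -2.03. Of 78 calcium kinase and calcium sensor genes 15 were higher and 11 lower, with 6 higher without Bengal replicate 1, 8 without Bengal replicate 2 and 9 without Nipponbare replicate 2, and 7 lower without Bengal replicate 1 or Nipponbare replicate 1. CIPK14 read 10.14 and 10.56 in Nipponbare against 12.94 and 12.84 in Bengal (-2.54, adjusted p = 1.14e-07). Of 24 DNA repair and methylation genes 6 were higher (1 without Bengal replicate 1, 2 without Nipponbare replicate 2) and 7 lower (4 without Bengal replicate 2), with the methyltransferase gene DRM3 at -1.0. Of 29 cytochrome P450 genes 7 were higher and 2 lower, and of 24 ribosomal protein genes 3 were higher and 1 lower, all 4 of which lost their calls without Bengal replicate 2 or Nipponbare replicate 1.

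The same pair of cultivars on the separate transgenic arrays repeated most of the large differences. In the unstable transgenic line against the stable transgenic line 14461 probe sets were called (25.3%), with 21.2% of genes higher and 21.3% lower. Of the 3339 calls of at least 2-fold in the controls, 2887 were called in the same direction there (86.5%), and of the 214 at 16-fold or more, 213 were (99.5%). Of all 13344 control calls, 8772 were (65.7%, and 60.7% of the transgenic calls), while 114 were called the opposite way. BURP17 stood at 9.22 in the transgenic pair against 8.64 in the controls, JAZ2 at 7.36 against 7.24, and IRT1 at 5.32 against 5.50.

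The difference between both contrasts was itself called for 1116 probe sets (1.95%, 8468 at an unadjusted p under 0.05, and 199 with no variance moderation), 646 of which were also called in the controls and 234 of these in the same direction and smaller in the transgenic pair. RAB16B stood at -2.50 in the transgenic pair against -5.68 in the controls (limma adjusted p of the difference = 0.0385), and LEA19 at -1.96 against -4.96 (0.0372). Cht4 stood at 0.20 in the transgenic pair, where it was not called, against -1.84 in the controls (0.0177). HAK7 stood at -0.26 against -1.54 (0.00207), ABA1 at 0.12 against 1.09 (0.00517) and LFNR1 at 0.45 against 1.61 (0.00537). HSP16.9B differed more in the transgenic pair, at 4.13 against 2.65 (0.00235), as did JAZ6, at 2.31 against 0.68 (0.0245). Root markers were called higher in 9 of 13 cases in the transgenic pair, with mean levels of 10.10 and 9.94 in the unstable transgenic line against 8.10 and 7.18 in the stable transgenic line. Jasmonate signalling genes were called higher in 13 of 20 cases there against 4 in the controls, and photosynthesis genes in 4 of 20 against 10, and these differences between counts were not tested.

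**Figure D4:**
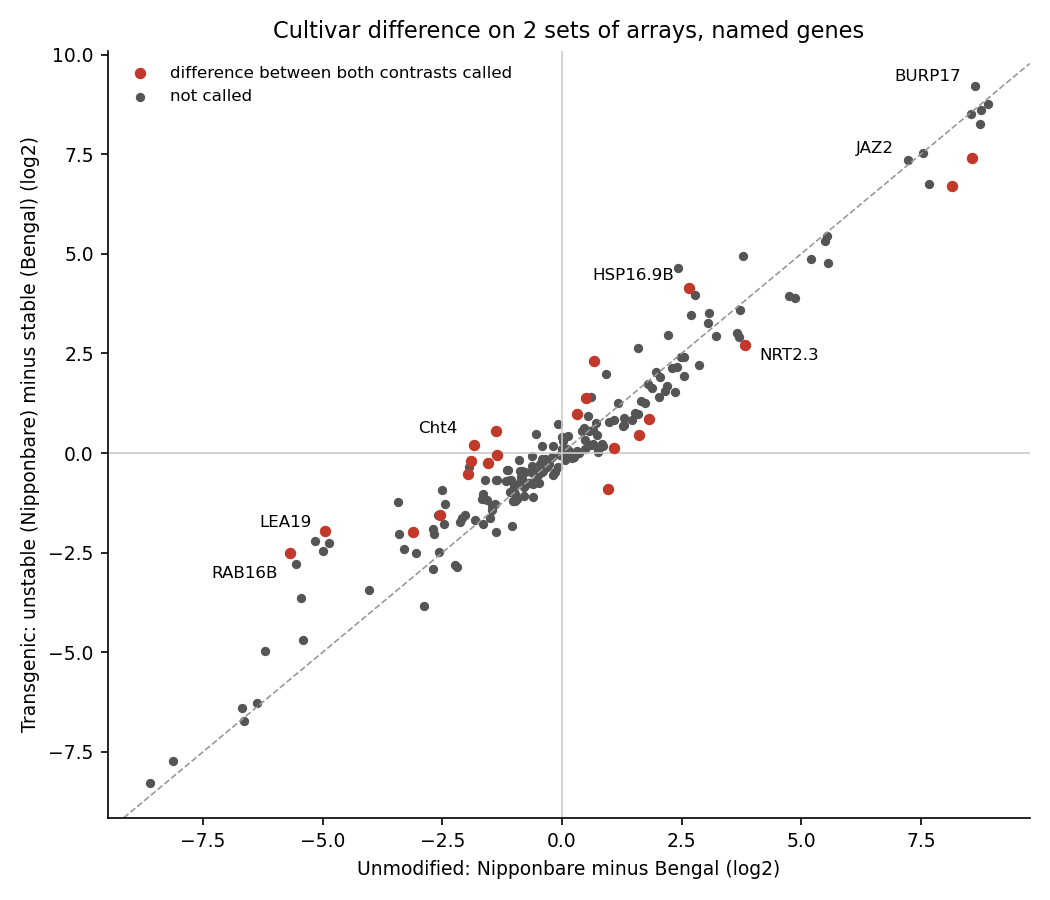
Log2 differences of the 206 named genes and probe sets between the cultivars, in unmodified plants (horizontal axis, Nipponbare minus Bengal) and in transgenic plants (vertical axis, unstable line minus stable line). Red points are those whose difference between both contrasts was called, the dashed line marks equal values, and genes of the text are labelled. BURP17 and JAZ2 lie near the line, while RAB16B and LEA19 lie above it at -2.50 and -1.96 on the vertical axis.

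Estrela A lay nearer to Bengal than to Nipponbare for most of these probe sets. Its arrays correlated with Bengal's at 0.974 to 0.975 and with Nipponbare's at 0.959 to 0.966. Of the 3339 calls of at least 2-fold, Estrela A read nearer to Nipponbare for 897 (26.9%). Among those of at least 16-fold it read nearer to Nipponbare for 48 of the 141 higher (34%) and 34 of the 73 lower in Nipponbare (46.6%). BURP17 (14.11), EIL1 (LOC4332697, 10.20) and OPR4 (9.19) were named genes at which Estrela A read with Nipponbare, and JAZ2 (3.5), C3H40 (4.05) and IRT1 (5.53) were genes at which it read with Bengal. The irradiated Nipponbare line, though labelled with that cultivar, was nearer to Nipponbare for 1440 of the 3339 (43.1%). Among calls of at least 16-fold it was nearer to Nipponbare for 121 of the 141 higher (85.8%) and 41 of the 73 lower (56.2%). C3H40 (10.41), LOC4346790 (12.59) and LOC4329983 (11.32) read with Nipponbare there, while JAZ2 read 3.31, at Bengal's level.

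Some genes that differed at least 2-fold lay beside each other in the gene order. Of the 1669 such genes, which are 9.32% of all genes, 300 (18%) stood in runs of 2 or more neighbours with the same direction, in 133 runs, of which 22 held at least 3 genes and 5 at least 5. These runs were chosen after their values were seen. A run joined LOC4326058 (8.54) and LOC4326061 (8.90) to LOC4326064 (3.02), LOC4325823 (2.40) and LOC4325824 (1.07). Another joined LOC4341377 (8.76) to LOC4341378 (1.48), LOC4341379 (5.50), LOC4341380 (6.24) and LOC4341383 (5.69). The longest, of 6 genes, ran from LOC4335290 (3.70) to LOC4335304 (2.06), whose call was lost with 1 array left out (limma adjusted p up to 0.0935). Among the genes lower in Nipponbare, the dehydrin genes RAB16D (-2.07), RAB16C (-2.44), RAB16B (-5.68) and RAB21 (-4.86) stood next to each other. These 4 belong to 1 gene family, and whether their probe sets pick up each other's transcripts was not tested.

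**Figure D5:**
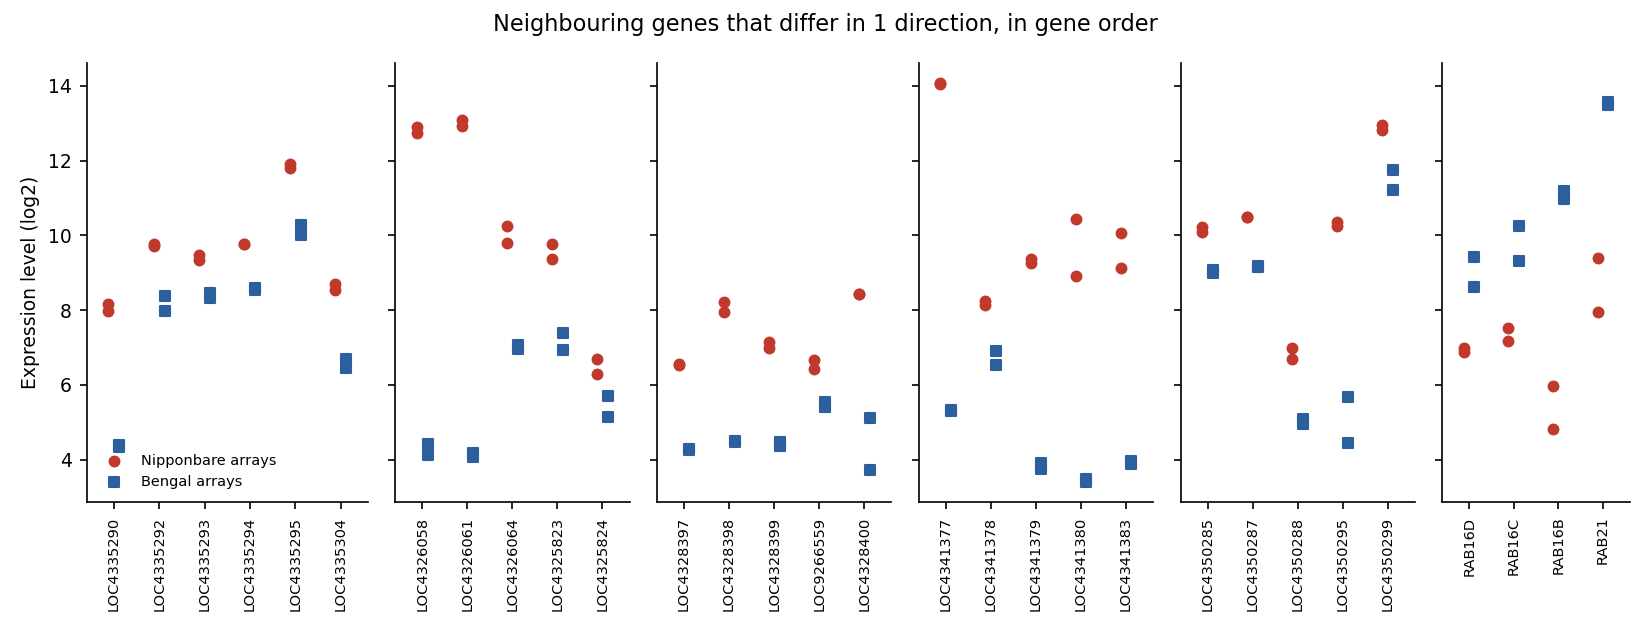
Log2 levels of neighbouring genes called at least 2-fold in the same direction, for the 5 runs of at least 5 genes and the run of dehydrin genes at the right. Genes follow the gene order within a panel, red circles are Nipponbare arrays and blue squares Bengal arrays. In the fourth panel LOC4341377 reads 14.06 and 14.08 in Nipponbare against 5.33 and 5.30 in Bengal.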

How the data were processed

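RNA from 14 pools of 6 seedlings was hybridised to the Affymetrix GeneChip Rice Genome Array, 2 arrays in each of 7 groups. The deposited log2 values were made by the authors in Partek Genomics Suite with RMA (background correction, quantile normalisation over all chips, log2, median polish), per the series' design text, without version numbers. Detection calls were not analysed, so signal over background was not tested, and the number of arrays limits the precision.

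Here limma 3.58.1 in R 4.3.3 fitted a mean per group to all 14 arrays (7 residual and 4.57 prior degrees of freedom). The contrasts tested were those of both controls, the transgenic lines, and the difference between these. Tests were two-sided with Benjamini-Hochberg adjustment over 57194 probe sets, after 187 control probe sets (64 of them reporters) were left out. Tables were made with Python 3.11.15 and pandas 2.3.3, figures with matplotlib 3.10.9. Simulated data had independent normal noise and no group differences except in 100 probe sets changed by 1 log2 unit and 100 changed by 2. The fit recovered 74% and 99% of these, with 12 false calls over 57194 probe sets. Far more probe sets were called in the real comparison, so these rates need not carry over to it.

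Names came from the RefSeq gene table: 22436 probe sets matched 1 gene, 95 several and 34663 none. Each gene was read through its brightest probe set, by the mean of the 14 arrays. Named were up to 15 informative symbols each way with the largest called difference, disjoint arrays and a higher group at or above the median level, up to 4 called members of each of 41 lists with the largest difference (2 where none was called), 5 genes known by identifier and 3 probe sets without a gene each way, and any member of the heading date, clock, starch and gibberellin lists. The members and lists were chosen with earlier results of these data known. Alternatives were cyclic loess, other variance priors, smaller sets of arrays, filters on dim or shared probe sets, the next probe set of a gene, a replicate block and leaving out each array. Probe sequences were not used here.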

Additional observations from a re-analysis of the deposited data

Results flagged for a closer look

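For 6 of the genes with the largest differences, the cultivar difference in unmodified plants differed from that in transgenic plants by a test of the difference itself (limma, adjusted p under 0.05, called for 1.95% of all probe sets). RAB16B stood at -2.50 in the transgenic pair and -5.68 in the controls, which differ by -3.18 (controls minus transgenic). LEA19 stood at -1.96 in the transgenic pair and -4.96 in the controls, which differ by -3.0, and SAT1 at -1.98 and -3.12, which differ by -1.14. NRT2.3 stood at 2.70 in the transgenic pair and 3.83 in the controls, which differ by 1.14. LOC4346790 stood at 6.71 and 8.15, which differ by 1.44, and LOC4329983 at 7.41 and 8.56, which differ by 1.15. These genes were picked for large differences in the controls. Over all probe sets, 234 of the 646 with a called difference and a call in the controls had the same direction and a smaller difference in the transgenic pair.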

How the results depend on the processing

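The count of probe sets called between the controls, 13344, lay between 9180 (only the 4 arrays compared) and 13930 (without Nipponbare replicate 2) over the alternatives, and between 9455 and 13930 with 1 array left out. It was 3339 with a 2-fold minimum, and for the transgenic pair 3922. The difference between both contrasts, 1116, was 199 with no variance moderation, 209 with only the 8 arrays compared and 324 to 2203 with 1 array left out. With 1 array left out, 139 of the 179 called among the 206 named genes and probe sets kept their call in all 4 fits. Where a gene's next probe set was used, 34 of 49 genes kept their side of the threshold with no called value turned. Another 10 lost their call without a change of sign, among them PM1 at -0.18, DTC1 at 0.14, AMT1 at 0.22 and PHO1-2 at 0.03. The other 5 changed sign. Of these only PIK6-NP was called the other way, at 0.67. AMY1.3 (0.19), CCA1 (0.28), SS2 (-0.09) and IAA3 (-0.10) were not called, so they lost their call too. The cause was not tested. The fit without the unstable mutant (13221) was chosen after seeing the data.

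With the replicate number of the titles as a block, 12878 probe sets were called between the controls, 14069 in the transgenic pair and 951 for the difference. Deviations of same-numbered arrays correlated at 0.0158 between the controls and 0.115 between the transgenic lines, and from -0.208 to 0.115 over all pairs of groups. Whether same-numbered arrays were handled together is not in the labels, and these correlations cannot tell.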
